A study of Mus musculus with 24 samples.

Results

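Interferon signalling and feedback genes were followed in mouse blood after x-ray exposure. The set held 9 genes, Ifnar1, Stat2, Irf9, Irf7, Usp18, Isg15, Rtp4, Xaf1 and Rsad2, chosen by gene name among the non-control probes of the array. They were represented by 13 of 39429 probes and were 9 of 29711 genes on the array. All 9 had a probe well above background on at least 5 arrays and entered the test, as did 15787 genes in all. Blood had been drawn by cardiac puncture from male C57BL/6J mice, and its total RNA was measured on 24 one-colour Agilent arrays. The mice carried the genotype label Gadd45aWT or Gadd45aKO (written WT and KO-labelled below) and received 0 or 7 Gy of x-rays, with collection 24 h later. WT blood was measured on 5 arrays per dose. KO-labelled blood was measured on 5 arrays without irradiation and on 9 after 7 Gy. The age of the mice was not given in the sources used here. The submitters described the arrays of a group as independent experiments, but no source used here tied an array to an animal. The p-values therefore measure the spread between these arrays.

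Type I interferons bind a receptor of the chains Ifnar1 and Ifnar2, whose attached kinases Tyk2 and Jak1 phosphorylate Stat2. Phosphorylated Stat2 acts with Irf9 in the factor ISGF3, which binds interferon-stimulated response elements and raises the transcription of many genes. Some of these genes extend the signal, such as Irf7, a transcription factor that drives further interferon production. Others end it, such as Usp18, which both blocks the receptor and removes the ubiquitin-like protein Isg15 from its targets. Leukocytes carry the receptor, so blood RNA is widely used to read interferon activity.

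The arrays had between 25.7% and 50.9% of their probes well above background, and a level below is the log2 processed signal minus the 75th percentile of the array. Levels of different probes were not set against each other. The arrays of KO-labelled replicates 1 and 4 at 0 Gy were closer to each other than repeated spots on 1 array are (ratio of the spreads 0.888). Their mean was therefore used as 1 sample, which left n = 4 in that group. Other pairs were only a little further apart. A looser limit of 1.2 on that ratio, used in an alternative run, averaged more arrays. It left 4 samples in WT at 0 Gy, 3 in WT at 7 Gy, and 4 and 7 in KO-labelled blood. The arrays counted singly below may therefore not all be independent samples. The probe of Gadd45a, the targeted gene, was called lower under the KO label at neither dose. At 0 Gy its mean log2 level was 0.65 in WT (SD 0.23) and 0.51 in KO-labelled blood (SD 0.16), with an adjusted p of 0.855. At 7 Gy it was higher in KO-labelled blood (adjusted p = 4.78e-05). The sources used here do not say which part of the gene the allele lacks, so every direction given below by genotype rests on the label. Of 9 genes that mark blood, such as those of globins, Ptprc and S100a8, all 9 entered the test, and their mean log2 level was between 2.43 and 4.07 in every sample. Of 10 genes that mark hepatocytes, 9 entered it, with mean log2 levels between -6.33 and -5.96 in WT at 0 Gy and between -2.20 and 1.77 in WT at 7 Gy.

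To show which of the genes carry a response element next to the start, the RefSeq promoters on GRCm38.p6 were searched on both strands for the motif made of GAAA, any pair of bases (NN) and GAAA, in the 250 bases before the annotated start. Promoters were matched for 7 of the 9 genes. Usp18 and Rtp4 had no entry. Across all 32851 promoters, 978 held the motif in the same window, a share of 2.98%. Among the 7 matched genes it was found in 3, Stat2, Isg15 and Rsad2, and these are printed because the same letters stood before genes with different responses below. Capitals mark the matches. In Isg15, 3 overlapping matches ran together from -78 to -57. The windows are chr10:128270248-128270497 on the plus strand for Stat2, chr4:156200819-156201068 on the minus strand for Isg15 and chr12:26456453-26456702 on the minus strand for Rsad2.
Stat2: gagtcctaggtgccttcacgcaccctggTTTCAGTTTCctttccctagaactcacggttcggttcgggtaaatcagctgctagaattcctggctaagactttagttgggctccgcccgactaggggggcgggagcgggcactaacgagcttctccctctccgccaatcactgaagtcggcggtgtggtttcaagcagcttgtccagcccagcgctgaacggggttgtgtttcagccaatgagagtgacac
Isg15: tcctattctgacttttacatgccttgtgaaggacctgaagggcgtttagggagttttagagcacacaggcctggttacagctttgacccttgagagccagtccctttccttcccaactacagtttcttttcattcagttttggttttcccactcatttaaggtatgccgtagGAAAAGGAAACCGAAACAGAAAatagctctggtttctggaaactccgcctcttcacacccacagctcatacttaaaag
Rsad2: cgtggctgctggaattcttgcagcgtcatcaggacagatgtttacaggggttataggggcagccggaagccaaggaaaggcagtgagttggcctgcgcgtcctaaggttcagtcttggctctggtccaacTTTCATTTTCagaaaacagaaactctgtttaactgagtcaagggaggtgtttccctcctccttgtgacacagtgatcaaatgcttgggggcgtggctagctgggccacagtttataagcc
A match is a description of letters and not a bound site, and a window without one says only that these letters are not in it. The STAT-type motif TTCNNNGAA, its own reverse complement, was in none of the 7 genes' windows and in 7.02% of all promoters.

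In WT blood, 6 of the 9 genes were higher 24 h after 7 Gy than after 0 Gy: Rtp4, Usp18, Xaf1, Irf9, Stat2 and Irf7. Their increases ran from 2.18-fold for Irf7 to 14.9-fold for Rtp4. None of the 9 was called lower by limma at an adjusted p under 0.05, although Ifnar1 was the 1 gene lower at an unadjusted p under 0.05. For that unadjusted limit no share of all genes was computed. At the adjusted limit, 23.4% of all genes tested were called, 10.1% higher and 13.3% lower. The median log2 change of the 9 genes was 1.19, beside -0.05 for all genes. Under normexp background correction the same 6 genes were called, with smaller changes for Xaf1 (1.15), Usp18 (1.73), Stat2 (0.60) and Irf7 (0.69). That run added an offset of 50 to the signal and was followed by quantile normalization. An added offset by itself makes the log2 changes of dim probes smaller, here and wherever normexp is named below. The 7 Gy and 0 Gy arrays did not overlap for the same 6 genes, higher at 7 Gy, against 12% of all genes, and for Ifnar1, lower at 7 Gy, against 16.5%. The microarray cannot tell apart fewer cells of a type and less RNA per cell.

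**Figure D1:**
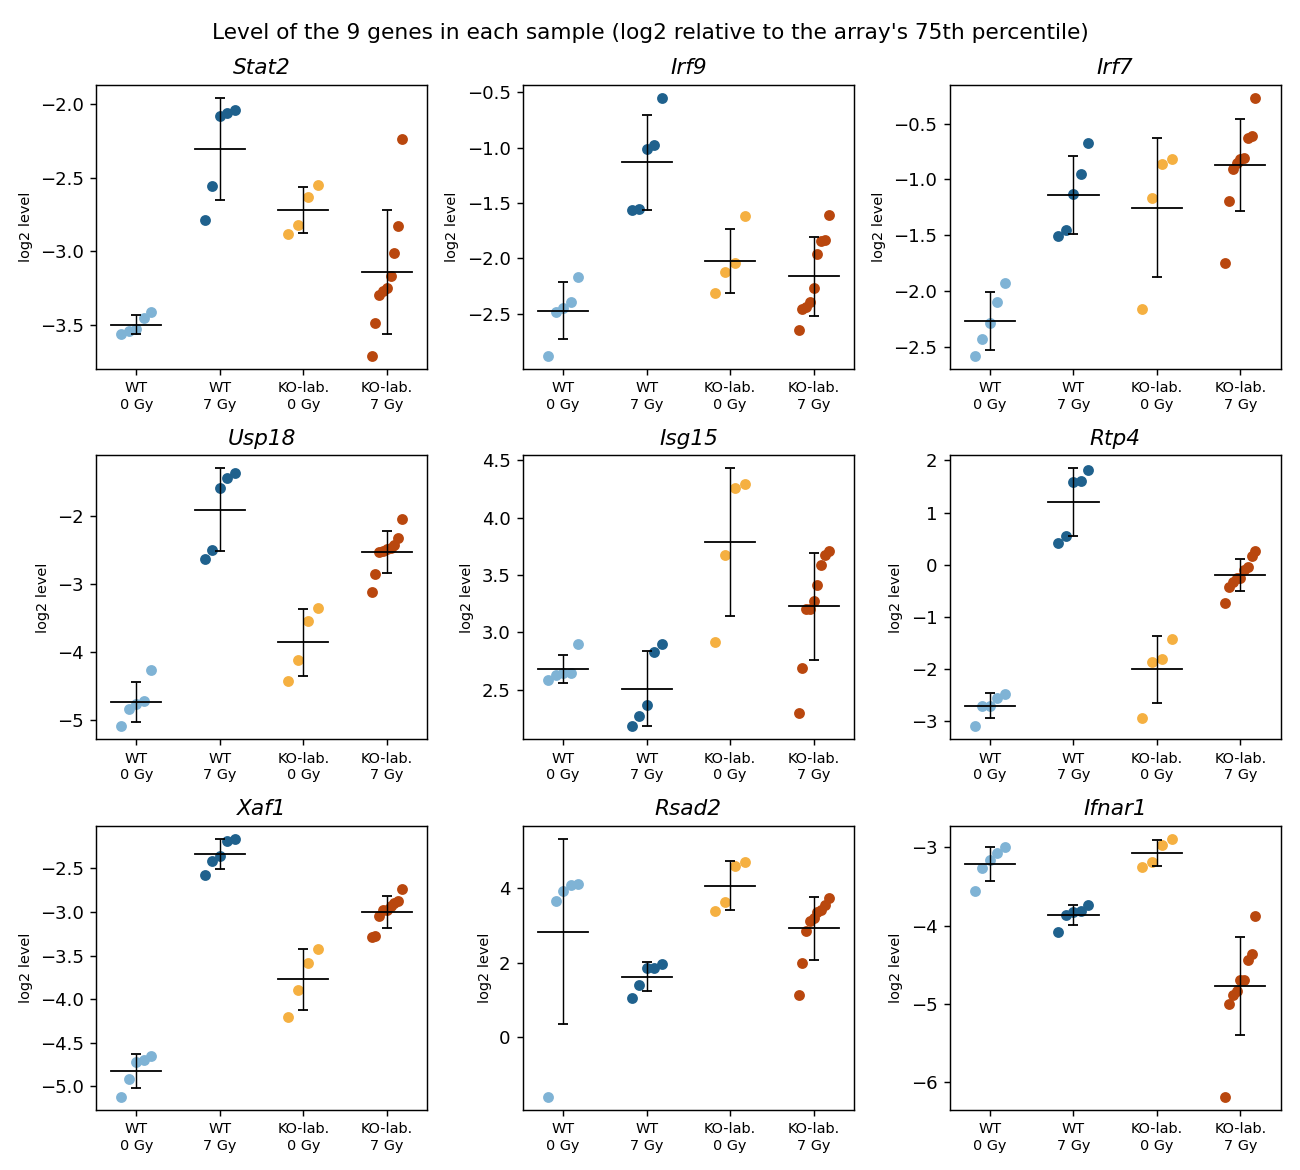
Log2 level of each gene in each sample, relative to the array's 75th percentile, with WT in blue and KO-labelled in orange, at 0 Gy (light) and 7 Gy (dark). Points are samples (the averaged pair is 1 point), the line is the group mean and the bar 1 SD. The 7 Gy points of Rtp4, Usp18 and Xaf1 lie above the 0 Gy points under both labels, and 1 WT 0 Gy sample of Rsad2 lies at -1.61.

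Stat2 is the signal-carrying subunit of ISGF3 (probe at mm9 chr10:127729834-127729893, plus strand). Its levels were -3.56, -3.45, -3.54, -3.53 and -3.41 in the 5 WT arrays at 0 Gy. They were -2.79, -2.56, -2.06, -2.08 and -2.04 in the 5 WT arrays at 7 Gy. Every irradiated WT array was above every unirradiated one, and Stat2 rose by 1.19 ± 0.21 (log2, SE), or 2.28-fold, with an adjusted p of 0.000243. In KO-labelled blood the 4 samples at 0 Gy had -2.82, -2.63, -2.88 and -2.55, and the 9 at 7 Gy ran from -3.71 through a median of -3.25 to -2.24. The groups overlapped, and the difference of -0.42 ± 0.20 was not called (adjusted p = 0.0935). It was called lower with the slide as a block (-0.57, adjusted p = 0.0162), without slide 6 (-0.59, adjusted p = 0.0135) and without KO-labelled 7 Gy replicate 9 (-0.54, adjusted p = 0.0106). The difference was smaller and not called under normexp (-0.22, adjusted p = 0.179) and in the authors' value table (-0.21, adjusted p = 0.545). Across 16 other settings, not counting single arrays left out, it ran from -0.59 to -0.09 and was called in 3.

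Irf9 is the DNA-binding subunit of ISGF3 (mm9 chr14:56228806-56228865, plus strand). WT arrays at 0 Gy had log2 levels of -2.88, -2.45, -2.39, -2.48 and -2.17. WT arrays at 7 Gy had -1.55, -1.56, -1.01, -0.98 and -0.55. All 5 irradiated arrays stood above the unirradiated ones, and Irf9 rose 2.54-fold (1.34 ± 0.23 on the log2 scale, adjusted p = 0.000111). In KO-labelled blood the levels were -2.04, -2.31, -2.12 and -1.62 at 0 Gy and ran from -2.65 to -1.61, with a median of -2.27, at 7 Gy. These ranges lay on top of each other, with a difference of -0.14 ± 0.21 (adjusted p = 0.626).

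Irf7, the factor that amplifies interferon production, was read by a probe at mm9 chr7:148450664-148451014 on the minus strand. Its WT levels were -2.58, -2.43, -2.29, -2.10 and -1.93 at 0 Gy and -1.51, -1.45, -1.13, -0.95 and -0.67 at 7 Gy. The groups were separate and Irf7 rose 2.18-fold (log2 1.13 ± 0.26, adjusted p = 0.00303). KO-labelled samples had -0.82, -2.16, -0.86 and -1.17 at 0 Gy and between -1.75 and -0.27 at 7 Gy, with a median of -0.82. Here the groups overlapped and the difference of 0.38 ± 0.25 was not called (adjusted p = 0.221). It was called when arrays were scaled by their median (0.63, adjusted p = 0.037) or by the 75th percentile over all probes (0.71, adjusted p = 0.0279). Without KO-labelled 0 Gy replicate 2 it was 0.08 (adjusted p = 0.798).

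Usp18, the feedback inhibitor of the receptor, was read at mm9 chr6:121220874-121220933 on the plus strand. WT levels were -4.27, -5.10, -4.77, -4.73 and -4.84 at 0 Gy. At 7 Gy they were -2.51, -2.63, -1.45, -1.59 and -1.37. The lowest irradiated array stood well above the highest unirradiated one, and Usp18 rose 7.11-fold (log2 2.83 ± 0.26, adjusted p = 4.4e-08). Usp18 also rose in KO-labelled blood. Levels went from -3.55, -4.43, -3.36 and -4.12 at 0 Gy to a range of -3.12 to -2.05 at 7 Gy, with a median of -2.49. The groups did not overlap and the increase was 2.52-fold (log2 1.33 ± 0.25, adjusted p = 0.000161). The probe was not well above background on 1 of the 24 arrays, KO-labelled 0 Gy replicate 2.

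Isg15, the ubiquitin-like modifier that Usp18 removes, was not called in WT blood. The probe used (mm9 chr4:155573649-155573708, minus strand) gave log2 levels of 2.65, 2.63, 2.65, 2.59 and 2.90 at 0 Gy in WT. At 7 Gy it gave 2.90, 2.83, 2.27, 2.19 and 2.37, within or below the range of the unirradiated arrays. The difference was -0.17 ± 0.27 (log2, SE), with a 95% interval of -0.73 to 0.39 and an adjusted p of 0.729. In KO-labelled blood the levels were 4.29, 2.92, 4.26 and 3.67 at 0 Gy and ran from 2.30 through a median of 3.27 to 3.71 at 7 Gy. The difference of -0.56 ± 0.26 was not called (adjusted p = 0.0789). Without KO-labelled 0 Gy replicate 2, the sample at 2.92, it was -0.85 with an adjusted p of 0.00929. The other Isg15 probe (mm9 chr4:155573533-155573552), tested among probes, was called lower in KO-labelled blood (-0.87 ± 0.25, adjusted p = 0.00609) and was not called in WT (-0.26 ± 0.26, adjusted p = 0.549).

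Rtp4, a chaperone induced by interferon and known to restrain it, had the largest increase of the 9 genes under both labels. Its probe lies at mm9 chr16:23613668-23613727 on the plus strand. WT levels were -3.10, -2.71, -2.70, -2.55 and -2.48 at 0 Gy and 0.42, 0.56, 1.58, 1.60 and 1.82 at 7 Gy. The groups were far apart, and Rtp4 rose 14.9-fold (log2 3.90 ± 0.29, adjusted p = 1.55e-09), and its change ranked 153 among the 15787 genes. In KO-labelled blood the levels were -1.80, -2.93, -1.86 and -1.43 at 0 Gy and ran from -0.74 to 0.27, with a median of -0.25, at 7 Gy. Again no sample of either dose overlapped the other, and Rtp4 rose 3.51-fold (log2 1.81 ± 0.27, adjusted p = 1.26e-05).

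Xaf1, an interferon-induced gene that promotes apoptosis by binding Xiap, was read at mm9 chr11:72122169-72122228 on the plus strand. Its WT levels were -4.70, -4.72, -4.65, -4.91 and -5.12 at 0 Gy and -2.41, -2.57, -2.16, -2.18 and -2.36 at 7 Gy. The spread within each group was small beside the gap, and Xaf1 rose 5.61-fold (log2 2.49 ± 0.16, adjusted p = 3.23e-10). In KO-labelled blood the levels were -3.42, -4.20, -3.58 and -3.89 at 0 Gy and between -3.29 and -2.73, with a median of -2.98, at 7 Gy. The groups did not overlap and Xaf1 rose 1.71-fold (log2 0.78 ± 0.15, adjusted p = 0.000248), with 0.50 under normexp, still called. The gene's other probe was not well above background on any array.

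Rsad2 encodes viperin, an antiviral enzyme, and is a usual marker of interferon exposure, but it was not higher at 7 Gy. In WT at 0 Gy its levels were -1.61, 3.93, 3.66, 4.12 and 4.09, so that replicate 1 lay far under the other 4. At 7 Gy they were 1.86, 1.97, 1.06, 1.39 and 1.85, between that array and the rest. With all arrays the difference was -1.21 ± 0.78 and was not called (adjusted p = 0.298). Without WT 0 Gy replicate 1 it was -2.32, with an adjusted p of 0.000339. On that array Kpna1, an importin gene, and Pigq, a gene of GPI anchor synthesis, were at -7.49 and -4.84, against -2.30 to -2.17 and -0.17 to -0.08 on the other WT 0 Gy arrays. Its repeat spots varied by 15.5%, against 4.18% to 5.57% on the others of the group. In KO-labelled blood Rsad2 had 4.70, 3.38, 3.63 and 4.59 at 0 Gy and ran from 1.13 through a median of 3.21 to 3.73 at 7 Gy. That difference was -1.15 and was not called (adjusted p = 0.213), but it was called without WT 0 Gy replicate 1, which shares the estimate of the spread (adjusted p = 0.0159). The probe lies at mm9 chr12:27127859-27127918 on the minus strand.

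Ifnar1, a chain of the receptor itself, was called lower in KO-labelled blood and not in WT. Its probe lies at mm9 chr16:91510673-91510732 on the plus strand. KO-labelled samples had log2 levels of -3.18, -2.89, -3.25 and -2.97 at 0 Gy and ran from -6.19 through a median of -4.69 to -3.88 at 7 Gy. No irradiated sample reached the unirradiated ones, and Ifnar1 fell by 1.70 ± 0.26 on the log2 scale, or 3.26-fold (adjusted p = 1.43e-05). Under normexp it was -0.72 and still called. The probe was not well above background on KO-labelled 7 Gy replicate 5, the sample at -6.19. Its processed signal was 11.1 to 27.8 on KO-labelled 7 Gy replicates 1 to 5 and 51.7 to 137 on replicates 6 to 9. At 0 Gy it was 101 to 251 on the KO-labelled arrays. Replicates 1 to 5 at 7 Gy were also dimmer as arrays, with a 75th percentile of 652 to 809, against 750 to 2230 at 0 Gy. The size of the fall is thus less well measured on them. In WT the levels were -3.56, -3.07, -3.16, -3.26 and -3.00 at 0 Gy and -3.81, -3.86, -3.74, -3.82 and -4.08 at 7 Gy. The groups did not overlap, but the difference of -0.65 ± 0.27 was not called (adjusted p = 0.0894). It was called with the slide as a block (adjusted p = 0.038) and without KO-labelled 7 Gy replicate 5 (adjusted p = 0.0116). Of the other probes of Ifnar1, 1 was well above background on 8 arrays and 1 on 2 arrays, and the first of these gave -0.61 ± 0.28 in KO-labelled blood (adjusted p = 0.0847 among probes).

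Counted over the set, KO-labelled blood had 3 genes higher (Usp18, Rtp4, Xaf1) and 1 lower (Ifnar1) at 7 Gy. Over all genes 47% were called in this comparison, 12.2% higher and 34.8% lower. The groups did not overlap for 3 genes, higher at 7 Gy, and for 1 gene, lower, against 5% and 19.7% of all genes. The median log2 change was -0.14 for the 9 genes and -0.26 for all genes. The balance of all genes depended on the scaling. Of the genes called in KO-labelled blood, 26.1% were higher in the setting used here, against 34.7% to 46.7% under 5 other scalings. The all-gene median ran from -0.07 to 0.19 under those. Relative to the all-gene median, Ifnar1 differed by -1.44, Stat2 by -0.16, Irf9 by 0.13 and Rtp4 by 2.08.

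**Figure D2:**
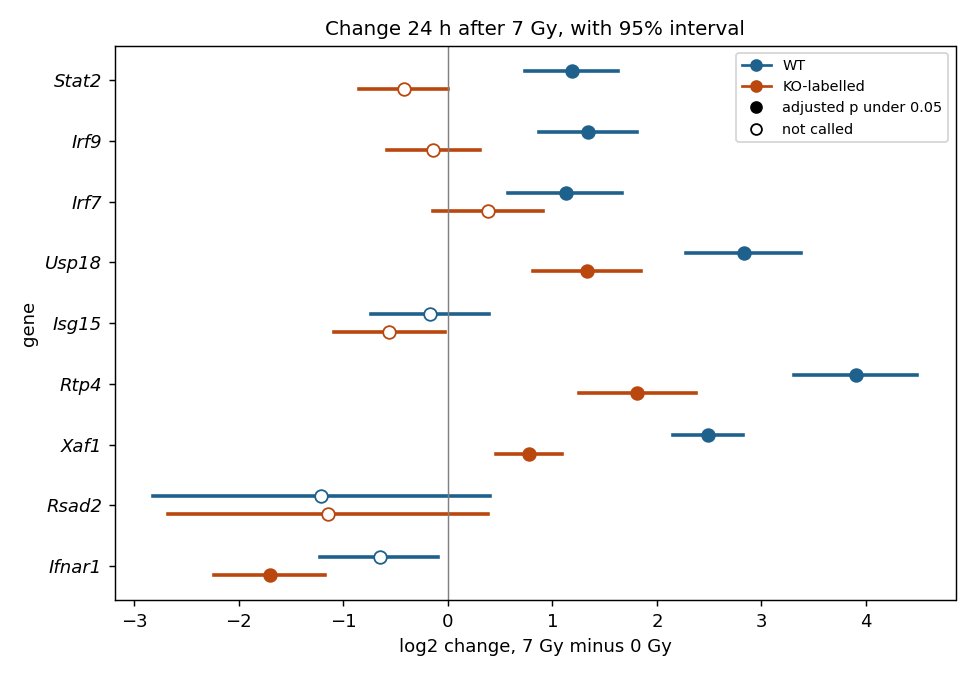
Log2 change from 0 to 7 Gy for each gene in WT (blue) and KO-labelled (orange) blood, with the 95% interval from limma. Filled points passed an adjusted p of 0.05. The WT points of Stat2, Irf9, Irf7, Usp18, Rtp4 and Xaf1 are filled and lie between 1.13 (Irf7) and 3.90 (Rtp4), each to the right of its KO-labelled point.

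The change after 7 Gy differed between the labels for 5 of the 9 genes, each with the smaller or more negative change in KO-labelled blood. The test was the interaction of label and dose in the same limma fit. The differences of the log2 changes were -2.09 ± 0.39 for Rtp4 (adjusted p = 0.00241), -1.71 ± 0.22 for Xaf1 (0.000229) and -1.61 ± 0.30 for Stat2 (0.00208). For Usp18 and Irf9 they were -1.50 ± 0.37 (adjusted p = 0.01) and -1.48 ± 0.31 (0.00473). Usp18 lost its call under quantile normalization (-1.16, adjusted p = 0.0626), all-probe scaling (-1.16, 0.0585), normexp background correction (-0.69, 0.0977) and the authors' value table (-1.31, 0.0857), and Irf9 lost it under that table (-1.30, 0.0868). Under normexp Irf9 (-0.92), Stat2 (-0.82) and Xaf1 (-0.64) were smaller and still called. Of all genes 15.7% were called in this comparison, 3.08% higher and 12.6% lower. The median was -1.48 for the 9 genes and -0.27 for all genes, and relative to the latter Stat2 differed by -1.35 and Rtp4 by -1.82. Among all genes called, 19.7% were higher, against 36.5% to 60.4% under the 5 other scalings.

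For 4 genes no difference between the responses was called. Isg15 had -0.38 with a 95% interval of -1.16 to 0.39, and Rsad2 had 0.06 with an interval of -2.15 to 2.28 (1.18 without WT 0 Gy replicate 1, adjusted p = 0.166). Irf7 had -0.74 (interval -1.50 to 0.01, adjusted p = 0.165). Ifnar1 had -1.05 (interval -1.83 to -0.27, adjusted p = 0.0593), and it was called with the slide as a block (-1.37, adjusted p = 0.00482), without slide 6 (-1.39, adjusted p = 0.00553) and without KO-labelled 7 Gy replicate 5 (-0.87, 0.0239), 7 (-1.10, 0.0495) or 9 (-1.16, 0.0187). Without KO-labelled 0 Gy replicate 2, Irf7 was called too (-1.04, adjusted p = 0.045).

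The arrays sat on 6 slides by the file headers. Slides 1 to 5 held 1 array of each of the 4 groups, and slide 6 held KO-labelled 7 Gy replicates 6 to 9 only. Within slides, the WT difference between doses was above 0 on 5 of 5 slides for Rtp4 (3.27 to 4.30), Usp18 (1.76 to 3.47), Xaf1 (2.15 to 2.76), Irf9 (0.89 to 1.62), Stat2 (0.77 to 1.48) and Irf7 (0.98 to 1.27), and below 0 on 5 of 5 for Ifnar1 (-1.08 to -0.25). The KO-labelled difference was above 0 on 5 of 5 slides for Rtp4 (1.12 to 2.68), Usp18 (0.75 to 2.07) and Xaf1 (0.29 to 1.22). It was below 0 on all 5 for Stat2 (-0.83 to -0.28), Irf9 (-0.53 to -0.07), Rsad2 (-2.49 to -0.01) and Ifnar1 (-3.22 to -1.57). The difference of the responses was below 0 on all 5 slides for Rtp4, Xaf1, Stat2, Usp18, Irf9 and Ifnar1 (-2.14 to -1.03). With slide 6 left out, the 5 called differences stayed called, and Rtp4 had -2.18 (adjusted p = 0.00218).

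Before any irradiation, Xaf1 alone of the 9 genes was called between the labels. It was 2.07-fold higher in KO-labelled blood at 0 Gy (log2 1.05 ± 0.17, adjusted p = 0.00627), with no overlap of the groups. Of all genes 0.291% were called (46 genes), 0.209% higher and 0.0823% lower. The remaining 8 genes had point estimates above 0, from 0.14 for Ifnar1 to 1.24 for Rsad2 (0.13 without WT 0 Gy replicate 1), and none was called lower at an adjusted or an unadjusted p under 0.05. At an unadjusted p under 0.05, 6 genes were higher. The share of all genes at that unadjusted limit was not computed, so this count cannot be weighed against it. Stat2 (0.78, adjusted p = 0.199) and Isg15 (1.10, adjusted p = 0.13) had groups that did not overlap, which with Xaf1 made 3 of 9, against 7.29% of all genes higher and 3.6% lower. The median of the set was 0.87, beside 0.10 for all genes. KO-labelled 0 Gy replicate 2 was the sample nearest WT for Irf7 (-2.16), Rtp4 (-2.93) and Isg15 (2.92), and its repeat spots varied by 22.2%, the highest of the arrays. Without it Irf7 (1.31) and Isg15 (1.39) were called as well, both with an adjusted p of 0.0314. With the slide as a block Irf7 (1.10, adjusted p = 0.0459) and Isg15 (adjusted p = 0.0471) were called too, and the replicate block added Stat2 (0.76, adjusted p = 0.0218). Within slides the difference was above 0 on 5 of 5 for Xaf1, Stat2, Irf7, Isg15, Usp18 and Irf9. Xaf1 lost its call under 7 of 16 other settings, among them quantile normalization (0.89, adjusted p = 0.0658), the authors' value table (1.07, adjusted p = 0.141) and normexp (0.37, adjusted p = 0.176). Of all genes called, 71.7% were higher, against 52.6% to 86.7% under the other scalings.

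At 7 Gy the labels differed in 6 genes. Rtp4 was 2.62-fold lower in KO-labelled blood (log2 -1.39 ± 0.25, adjusted p = 0.000411) and Irf9 was 2.04-fold lower (-1.03 ± 0.20, adjusted p = 0.000737). Stat2 (-0.83, adjusted p = 0.00274), Xaf1 (-0.66, adjusted p = 0.00172) and Ifnar1 (-0.91, adjusted p = 0.00807) were also lower. Isg15 was higher, by 1.64-fold (0.71 ± 0.24, adjusted p = 0.0335). The other Isg15 probe, tested among probes, had 0.59 ± 0.23 and was not called (adjusted p = 0.0738). The Ifnar1 probe well above background on 8 arrays had -0.24 ± 0.26 (adjusted p = 0.558 among probes). Among all genes 22.7% were called, 4.45% higher and 18.2% lower, and the medians were -0.66 for the 9 genes and -0.12 for all. The groups did not overlap, lower in KO-labelled blood, for Irf9, Rtp4 and Xaf1, against 5.32% of all genes, and no gene of the set had all KO-labelled samples higher, against 0.823%. Usp18 (-0.62, adjusted p = 0.0582), Irf7 (0.27, adjusted p = 0.445) and Rsad2 (1.30, adjusted p = 0.185) were not called. Rsad2 was called without WT 0 Gy replicate 1 (adjusted p = 0.0101). Usp18 was called without WT 7 Gy replicate 1 (-0.77, adjusted p = 0.0254) or 2 (-0.80, 0.0179), without KO-labelled 0 Gy replicate 2 (0.0483) and without KO-labelled 7 Gy replicate 5 (-0.68, 0.0382). Isg15 lost its call without any of WT 7 Gy replicates 3 to 5 (0.63 to 0.68, adjusted p = 0.0802 to 0.0979) or of KO-labelled 7 Gy replicates 1, 2, 4 and 8 (0.65 to 0.69, adjusted p = 0.0543 to 0.0608). Isg15 also lost it under quantile normalization (0.49, adjusted p = 0.0657), no filter on dim probes (0.0892), looser averaging of near-identical arrays (0.63, 0.245) and a fit of the compared groups only (0.0541). Irf9 (-0.82, adjusted p = 0.0551) and Stat2 (-0.63, 0.11) lost their calls under the authors' value table. Under normexp they were -0.64 and -0.35, and Xaf1 was -0.27, all still called. Xaf1 lost its call under quantile normalization (-0.47, adjusted p = 0.0514), all-probe scaling (-0.44, 0.0768) and the authors' value table (-0.46, 0.177). Ifnar1 did so under these (-0.69 to -0.54), under normexp (-0.21, adjusted p = 0.305) and under looser averaging (-0.86, 0.127). These comparisons share arrays with the dose comparisons above. Of all genes called, 19.6% were higher, against 33.9% to 48.3% under the other scalings.

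**Figure D3:**
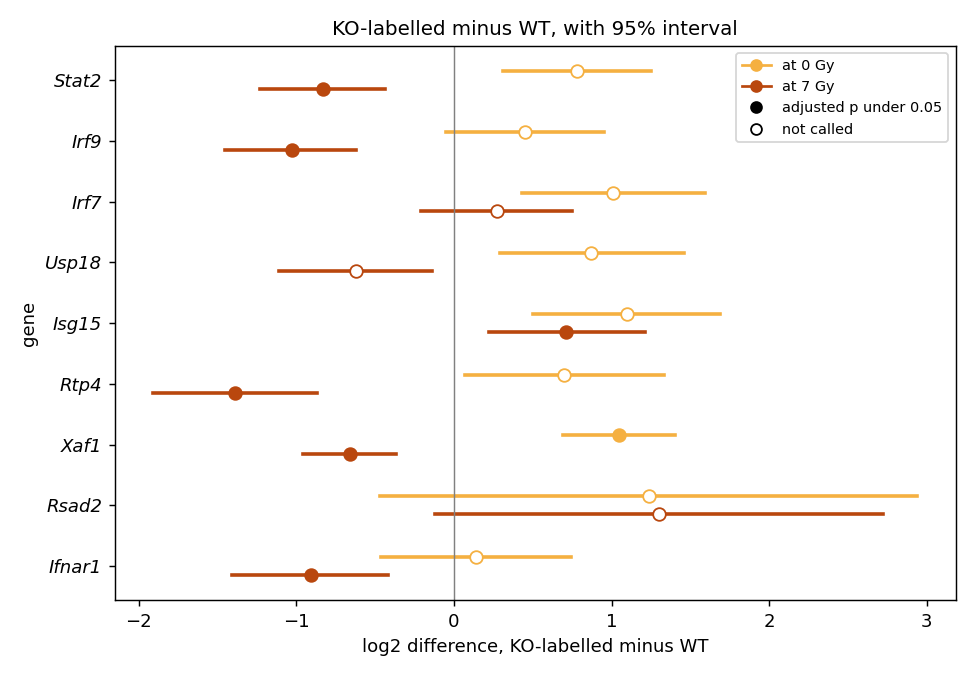
Log2 difference between KO-labelled and WT blood for each gene at 0 Gy (light orange) and at 7 Gy (dark orange), with the 95% interval from limma. Filled points passed an adjusted p of 0.05. For Stat2, Irf9, Usp18, Rtp4 and Xaf1 the 0 Gy point is above 0 and the 7 Gy point below it, from -1.39 for Rtp4 to -0.62 for Usp18, while Isg15 is above 0 at both doses.

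The 5 WT arrays at 7 Gy were not alike. Replicates 3 to 5 had higher levels than replicates 1 and 2 for Stat2, Irf9, Irf7, Usp18, Rtp4 and Xaf1, and lower levels for Isg15. Rtp4 was at 0.42 and 0.56 in replicates 1 and 2 and at 1.58 to 1.82 in the others. Usp18 was at -2.51 and -2.63 against -1.59 to -1.37. Markers of other cells moved with this division. The mean log2 level of the 9 hepatocyte markers was -2.20 and -2.13 in replicates 1 and 2 and 1.62 to 1.77 in replicates 3 to 5, and that of the 10 erythroid markers was 0.99 and 0.90 against 0.10 to 0.15. The 10 neutrophil markers had -1.38 and -1.25 against 0.01 in each of the others, and the 10 NK cell markers -2.19 and -2.09 against -2.86 to -2.66. The part of these cells in the results was not tested.

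**Figure D4:**
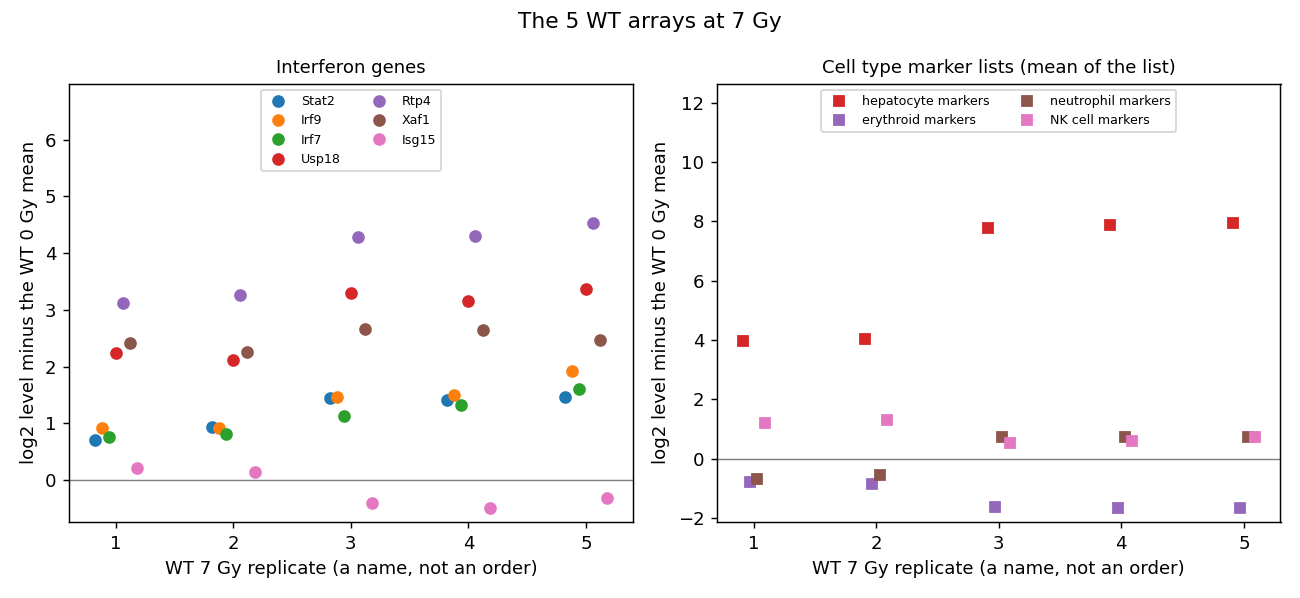
Log2 level minus the WT 0 Gy mean in each of the 5 WT arrays at 7 Gy, for 7 interferon genes (left) and for the mean of 4 marker lists (right). Replicates 3 to 5 are higher in Rtp4, Usp18, Stat2, Irf9, Irf7, hepatocyte and neutrophil markers, and lower in Isg15, erythroid and NK cell markers.

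With WT 7 Gy replicates 3 to 5 left out, a choice made after seeing the data, 4 genes were still called higher in WT: Rtp4 (3.19, adjusted p = 1.97e-06), Usp18 (2.17, adjusted p = 5.18e-05), Xaf1 (2.33, adjusted p = 8.74e-07) and Irf9 (0.92, adjusted p = 0.0372). Stat2 had 0.82 (adjusted p = 0.0665) and Irf7 had 0.79 (adjusted p = 0.195). Over all genes, 1637 were called in WT in this run, in either direction, against 3699 with all arrays. Only replicates 1 and 2 then stood for WT at 7 Gy. They were nearly as close to each other as repeated spots on 1 array (ratio of the spreads 1.05). The looser limit averages them as 1 sample, so the calls of this run may rest on little more than 1 sample. The responses still differed for Rtp4 (-1.38, adjusted p = 0.0411), Stat2 (-1.24, adjusted p = 0.0343) and Xaf1 (-1.56, adjusted p = 0.00301), but Irf9 (-1.06, adjusted p = 0.0669) and Usp18 (-0.84, adjusted p = 0.169) were no longer called. None of the 9 genes was then called between the labels at 7 Gy by limma, and 4 were lower at an unadjusted p under 0.05. The share of all genes at that unadjusted limit was not computed. Over all genes, 1159 were called between the labels at 7 Gy in this run, against 3577 with all arrays. For the difference of the responses 1031 were called, against 2471. Usp18 stood at 0.04 between the labels at 7 Gy.

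Marker lists also moved between the groups as a whole. Beside the counts below, 10.1% of all genes were called higher and 13.3% lower at 7 Gy in WT. In KO-labelled blood the shares were 12.2% and 34.8%. Hepatocyte markers rose for 9 of 9 tested genes in WT and for 7 of 9 in KO-labelled blood, where the mean level ran from -6.49 to -3.30 at 0 Gy and from -4.19 to -1.91 at 7 Gy. The defining marker Alb was not well above background on any WT array at 0 Gy. It was well above background on 2 of 5 KO-labelled arrays at 0 Gy and on all irradiated arrays. Erythroid markers fell for 4 of 10 in WT, with mean levels of 1.63 to 2.02 at 0 Gy and 0.10 to 0.99 at 7 Gy. In KO-labelled blood 3 of 10 rose and 5 fell, with means of 1.84 to 2.19 and 0.59 to 1.89. B cell markers fell for 10 of 10 under both labels. NK cell markers rose for 3 of 10 in WT and, in KO-labelled blood, rose for 2 and fell for 5. Between the labels at 7 Gy, 8 of 10 NK cell and 7 of 10 neutrophil markers were lower in KO-labelled blood and 1 neutrophil marker was higher. Over all genes 18.2% were lower and 4.45% higher. The response was called lower in KO-labelled blood for 7 of 10 NK cell, 5 of 9 hepatocyte and 4 of 10 neutrophil markers, against 12.6% of all genes. So it was for 3 of 9 T cell markers and 1 marker each of monocytes and plasmacytoid dendritic cells. For 3 of 10 platelet, 1 of 10 erythroid and 1 of 9 monocyte and macrophage markers it was called higher, against 3.08%. Monocyte and macrophage markers rose for 2 of 9 and fell for 2 in WT, and rose for 4 and fell for 2 in KO-labelled blood. T cell markers fell for 3 of 9 in WT and 6 of 9 in KO-labelled blood. Of 7 plasmacytoid dendritic cell markers tested, 1 rose and 1 fell in WT, and 1 rose and 3 fell in KO-labelled blood. The marker that rose was Bst2 under both labels, also among the genes most like Irf7 in level (Pearson coefficient 0.83). In WT the marker that fell was Ly6d, from a mean level of 0.98 to -3.86. Platelet markers rose for 7 of 10 in WT and 9 of 10 in KO-labelled blood. Their part in the results for the 9 genes was not tested.

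Upstream of these genes, 8 of 9 listed interferon genes were on the array and 4 entered the test. Ifng, the type II interferon made by NK and T cells, was the gene of the list that rose in WT, by 2.86-fold (log2 1.52 ± 0.29, adjusted p = 0.000412). In KO-labelled blood it had -0.12 (adjusted p = 0.748), and the responses differed by -1.64 (adjusted p = 0.00959). The type I genes Ifna1 and Ifna2 had changes of -0.10 and 0.57 in WT and 0.66 and 0.08 in KO-labelled blood, all uncalled. Ifna2 was well above background on only 2 of 5 WT arrays at 0 Gy and 1 of 5 at 7 Gy. In KO-labelled blood it was so on 2 of 5 and 3 of 9, so its changes are poorly measured. The Ifnb1, Ifna4 and Ifnk probes were not well above background on any array, so these arrays give no measured level for them.

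Among 8 receptor chains and kinases, 1 fell in WT and 5 fell in KO-labelled blood, with median log2 changes of -0.06 and -0.66. Over all genes 13.3% were called lower in WT and 34.8% in KO-labelled blood, with medians of -0.05 and -0.26. The WT gene was Ifnar2, the partner of Ifnar1, with -0.57 ± 0.17 (adjusted p = 0.0174), and it had -0.13 (adjusted p = 0.553) in KO-labelled blood. Among the KO-labelled genes were Ifngr1 and Ifngr2, the chains of the type II receptor, which fell by 1.29 (adjusted p = 3.22e-06) and 1.25 (adjusted p = 0.0048). Ifnlr1, the type III receptor chain, was called lower too (adjusted p = 0.00113), but it was not well above background on any of the 9 irradiated KO-labelled arrays, so its level there is only a bound. Tyk2 fell by 0.78 (adjusted p = 0.0209).

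Of 7 other transcription factors of the pathway, 2 fell in WT and 4 in KO-labelled blood, beside the same 13.3% and 34.8% of all genes. Irf8, which directs B cell and monocyte development, fell by 2.71 in WT (adjusted p = 8.89e-07) and by 2.53 in KO-labelled blood (adjusted p = 6.26e-07). Irf5 fell by 1.12 under both labels (adjusted p = 0.0397 and 0.0162). Irf1, an interferon-induced activator of transcription, fell by 1.07 in KO-labelled blood (adjusted p = 0.000128) and had 0.48 in WT (adjusted p = 0.103), and its responses differed by -1.54 (adjusted p = 0.00214).

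Of 10 negative regulators, 2 rose in WT, where 10.1% of all genes were called higher. In KO-labelled blood 1 rose and 5 fell, where 12.2% of all genes were called higher and 34.8% lower. Socs1, an inhibitor of the Jak kinases, rose 4.22-fold in WT (log2 2.08 ± 0.14, adjusted p = 5.6e-10). Its levels were -3.89 to -3.64 in WT at 0 Gy and -1.86 to -1.48 at 7 Gy, while KO-labelled samples lay between -3.48 and -3.20 at 0 Gy and between -3.70 and -2.93 at 7 Gy. In KO-labelled blood the change was 0.09 ± 0.14 (adjusted p = 0.609), and the responses differed by -1.99 ± 0.20 (adjusted p = 8.03e-06). Ifi35 rose in WT by 0.96 (adjusted p = 0.00226) and had 0.47 in KO-labelled blood (adjusted p = 0.0652). The phosphatase genes Ptpn6 and Ptpn2 fell in KO-labelled blood by 1.62 (adjusted p = 2.62e-05) and 1.31 (adjusted p = 0.000102), and Ptpn11 rose there by 0.87 (adjusted p = 0.00242).

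The enzymes that attach Isg15 differed among themselves. Of 5 listed genes 4 entered the test, and none was called in WT by limma, with 3 higher and 1 lower at an unadjusted p under 0.05. No share of all genes was computed at that unadjusted limit, so these counts cannot be weighed against it. At the adjusted limit 23.4% of all genes were called in WT. Uba7, the activating enzyme, rose 2.70-fold in KO-labelled blood (log2 1.43 ± 0.23, adjusted p = 3.54e-05). Trim25, a ligase, fell there by 1.11 ± 0.19 (adjusted p = 4.82e-05), and its responses differed by -1.58 (adjusted p = 0.00141). Ube2l6, the conjugating enzyme, had responses that differed by 1.35 (adjusted p = 0.0279), from -0.70 in WT (adjusted p = 0.093) and 0.65 in KO-labelled blood (adjusted p = 0.0581).

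Likeness between genes was measured by Pearson correlation of log2 levels over the 23 samples, which share group differences, scaling and slides. Usp18, Rtp4 and Xaf1 had coefficients of 0.93 to 0.94 with each other, and Stat2 and Irf9 had 0.87. Isg15 had coefficients of -0.38 to 0.51 with the other 8 genes. Outside the set, Rtp4 was most like Oas2 (0.99), Oasl2 (0.98) and Ifit3b (0.97), and Usp18 was most like Ifit3, Ifi27l2a and Ifit3b (0.95 each). Xaf1 was most like Ifit3, Oas2 and Ifi27l2a (0.94 each). Stat2 was most like Parp14 (0.94) and Parp9 (0.91), and Irf9 was most like Parp14 too (0.93). Irf7 was most like Lgals9 (0.85), Ifnar1 most like Rev3l (0.97) and Rsad2 most like E030030I06Rik, Kpna1 and Pigq (0.94 each), which share its low value on WT 0 Gy replicate 1. The gene most like Isg15 was Gm9706 (0.89), which RefSeq lists as a pseudogene on chromosome 17, and it had -0.38 in WT (adjusted p = 0.367) and fell by 0.80 in KO-labelled blood (adjusted p = 0.0134). With each group's mean taken off, the leading genes were different ones, such as Cytip for Irf9 (0.95), Sipa1l2 for Rtp4 (0.97) and Stk4 for Xaf1 (0.77).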

How the data were processed

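Blood RNA of 24 samples was read on one-colour Agilent arrays. Per the file headers, the intensity values were background-subtracted and detrended within each array by Agilent Feature Extraction 12.0.2 and not scaled between arrays. In R 4.3.3, outlier spots were dropped and repeated spots averaged. Scaling took off each array's 75th percentile of log2 intensity, computed on the 7857 probes detected on every array. A probe entered if well above background on 5 or more arrays, and each gene was read by its brightest probe on average, under its RefSeq symbol where it matched. A single limma 3.58.1 fit of the 4 groups gave every comparison, with Benjamini-Hochberg adjustment over 15787 genes and calls at an adjusted p under 0.05. The fit was tested on simulated data. The number of arrays limits the precision.

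The deposited value table, in log2 units, lists 12900 probes and was an alternative. For nearly all probes its columns match the log2 processed signal, with low values raised to a floor, plus a constant. That constant is 0 to 1.54, and its origin, and thus the table's scaling, stays unknown. The medians of the columns run from 5.75 to 7.18. Further alternatives were median, quantile and all-probe scaling, normexp correction, other filters on dim probes, the slide or replicate number as a block, other treatment of near-identical arrays, the mean of a gene's probes, fitting only the groups compared, and leaving out arrays. The normexp run used an offset of 50 and was followed by quantile normalization. Probe positions are those of the files, on mm9, and were not matched to exons here.

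Named were the 9 genes, Gadd45a, up to 4 called genes per pathway list with the largest change, and for each of the 9 the genes most like it. Other list genes named for their role were chosen after their values were seen. The 9 genes and the lists were chosen with earlier results of these data known. A result withheld for evaluation is not reported here.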

Additional observations from a re-analysis of the deposited data

Results flagged for a closer look

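Among 36 gene and group combinations tested for a sample far from the rest, 3 stood out, and chance gives about 1 in 20. Rsad2 was at -1.61 in WT 0 Gy replicate 1, where the nearest other sample was at 3.66. Isg15 was at 2.90 in WT 0 Gy replicate 5, with the nearest at 2.65. Ifnar1 was at -6.19 in KO-labelled 7 Gy replicate 5, with the nearest at -5.00.

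The response to 7 Gy differed between the labels, by the interaction test in limma, for Rtp4 (-2.09), Xaf1 (-1.71), Stat2 (-1.61), Usp18 (-1.50) and Irf9 (-1.48), each as the KO-labelled minus the WT log2 change. The call of Usp18 was lost under 5 of 14 other settings (-1.81 to -0.69 over all 14) and that of Irf9 under 2 of 15 (-1.64 to -0.92).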

How the results depend on the processing

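Out of 9 genes, 6 were called in WT, 4 in KO-labelled blood, 1 between labels at 0 Gy, 6 between labels at 7 Gy and 5 for the difference of responses. No gene that was called reversed its direction under any alternative run. Between labels at 0 Gy, the count was 0 with all-probe scaling (5 higher at an unadjusted p under 0.05 in limma), 0 with the authors' value table (5), 0 with no filter on dim probes (6) and 0 with a looser limit for averaging near-identical arrays (5). It was 2 with normexp, 2 with no arrays averaged and 3 with the slide as a block. At 7 Gy it was 3 with quantile normalization, 2 with the authors' value table and 0 without WT 7 Gy replicates 3 to 5 (0 higher and 4 lower at an unadjusted p under 0.05). For the difference of responses it was 3 with that table and 3 without those arrays. In KO-labelled blood it was 2 when probes had to be above background on all arrays, since Usp18 and Ifnar1 were then not tested. The cause of the other changes was not tested. No share of all genes was computed for the counts at an unadjusted p.

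Same-numbered arrays share a slide, and the correlations of their deviations ran from -0.23 to 0.71. They were 0.43 to 0.71 for replicate 3 and 0.19 to 0.54 for replicate 5, and of both signs for replicates 1, 2 and 4. Since no label pairs animals, the numbers were not taken as pairs in the fit used, and slide and replicate number were blocks in alternative runs only. With the replicate block the count between labels at 0 Gy was 4, and Stat2 was also called in KO-labelled blood (-0.57, adjusted p = 0.00436).

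Leaving out 1 array at a time gave counts of 6 to 7 in WT, 4 to 5 in KO-labelled blood, 1 to 3 and 5 to 7 between labels at 0 and 7 Gy, and 5 to 6 for the difference. The count of 3 came without KO-labelled 0 Gy replicate 2.

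Over all genes, 46 were called between labels at 0 Gy. This count was 19 with all-probe scaling, 15 with the authors' table, 10 with no filter, 5 with looser averaging, 80 with none averaged, 89 with normexp, 76 with only the compared groups, 89 without slide 6, 99 with the slide block, 292 with the replicate block and 12 to 68 when 1 array was left out. At 7 Gy, 3577 became 2252 with normexp, 1675 with the authors' table, 2062 with probes above background on all arrays, 1463 with looser averaging, 1159 without WT replicates 3 to 5, 6002 with the slide block and 6823 with the replicate block. For the difference, 2471 became 1094 with quantile normalization, 1470 with all-probe scaling, 899 with normexp, 555 with the authors' table, 1034 with no filter, 654 with looser averaging, 1428 without the 3 arrays of noisy repeat spots, 1031 without those WT arrays, 4242 without slide 6, 5164 with the slide block, 6231 with the replicate block and 1440 to 3632 when 1 array was left out. In WT, 3699 became 2176 with probes above background on all arrays, 2179 with looser averaging and 1637 without replicates 3 to 5. In KO-labelled blood, 7420 became 3900 with probes above background on all arrays.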
